A study of Mus musculus with 24 samples.

Results

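The nuclear genes of respiratory complexes II to V were described across 24 pools of mouse blastocysts. They were taken by symbol: Sdha to Sdhd and the Sdhaf genes for complex II, the Uqcr and Uqcc genes and Cyc1 for complex III, Cycs for cytochrome c, the Cox genes with a number for complex IV and the Atp5 genes for complex V. The symbols gave 63 of the 19938 named genes on the array, namely 8 for complex II, 12 for complex III, 1 for cytochrome c, 25 for complex IV and 17 for complex V. By role, 48 were counted as subunits, with the carrier Cycs among them, and 15 as assembly factors. Of the 63 genes, 60 were bright enough to be tested, among 13311 tested genes in all. The 3 others, Uqcc1, Cox7b2 and Cox8b, exceeded the median of the table (a log2 value of 2.56) on fewer than 4 of the 24 arrays. Uqcc1 did so on 1 array, and Cox7b2 and Cox8b on 0.

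Complex II (succinate dehydrogenase) passes electrons from succinate to ubiquinone and also belongs to the tricarboxylic acid cycle. Complex III (the cytochrome bc1 complex) hands them to the small carrier cytochrome c, complex IV (cytochrome c oxidase) passes them to oxygen, and complex V (ATP synthase) uses the proton gradient that results to make ATP. Complexes III to V also contain subunits encoded in mitochondrial DNA, which the symbols used here do not cover. In the mouse, oxidative phosphorylation is known to gain weight as the embryo forms a blastocyst, where the trophectoderm spends much ATP on pumping sodium to fill the cavity. Some complex IV subunits exist as a general form and a form made mainly in muscle, testis or lung, and subunit c of ATP synthase is encoded by several genes whose mature protein is the same.

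The embryos came from NMRI mice (RjHan:NMRI), an outbred stock. One cohort was given high-fat, high-calorie food and another control food from the age of 3 weeks. After 9 weeks, at the age of 12 weeks, they were mated, when all ate control food. The 3 kinds of parents were an obese mother with a lean father, a lean mother with an obese father, and lean parents, each with male (XY) and female (XX) embryos taken at day 3.5. A pool of 3 embryos of 1 sex from 1 mother gave 1 array, with 4 arrays in each of 6 groups. The labels name cohorts of 7 high-fat and 14 control animals but not the parents of each pool, so pools may share a mother, and p-values here reflect only how far these pools vary. In pools, fewer cells of a type and less RNA per cell cannot be told apart. The study asked how obesity of either parent alters the embryo transcriptome by sex.

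Values are log2 intensities, and the number of arrays limits their precision. Array means were close (2.82 to 2.86), whereas the standard deviation of the log2 values on an array, called signal spread here and computed without the 63 genes, was lowest on lean-parent male array 4 (1.26) and highest on obese-father female array 22 (1.803). Obese-father male array 12 had the next widest spread, 1.71. Fits with the spread as a covariate used instead the standard deviation over all probe sets, the 63 genes included (1.27 to 1.81). With array means this close, a wide spread means that values lie farther from the mean of that array on the whole. Single genes need not follow. The bright Cox20 (mean 7.77) fell with the spread (Pearson r = -0.85 over 24 arrays) and the dim Cox7a1 (mean 2.71) rose with it (r = 0.68). Blastocyst markers were described by the number of arrays on which they exceeded the table's median. Such a count cannot establish which cells were present, since markers of other cells reached it too. Of 8 trophectoderm markers, Cdx2, Gata3, Krt8, Krt18, Eomes, Tead4 and Tfap2c exceeded the table's median on all 24 arrays and Elf5 on 5. Of 6 markers of the inner cell mass and epiblast, Pou5f1, Nanog, Klf2 and Tdgf1 did so on 24, Sox2 on 21 and Esrrb on 16. Of 5 primitive endoderm markers, Gata6, Sox17 and Sox7 did so on 24, Gata4 on 23 and Pdgfra on 18. Markers of other cells were in part above the median too. Of 7 markers of the cumulus and granulosa cells that surround an egg, Amh, Foxl2 and Nr5a1 exceeded it on 24 arrays, Inhba on 20 and Has2 on 4, and Fshr and Ptx3 were too dim to be tested. Cd52 of blood cells did so on 10 arrays and Pax8 of the reproductive tract on 23, while Ptprc of blood cells and Ltf and Muc1 of that tract did so on 0. Of the sperm markers, Prm1, Prm2 and Tnp1 did so on 24 arrays and Odf1 on 23.

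The 63 genes were compared between obese-father and lean-parent males first. No gene passed the test (limma, Benjamini-Hochberg adjusted p under 0.05 over 13311 genes), and the smallest adjusted p among them was 0.316. Of all tested genes, 0.00751% passed (1 gene, not of the 63). The estimates still lay mainly to one side: 48 of the 60 tested genes had a higher mean in obese-father males, with a median log2 difference of 0.72, against -0.11 over all tested genes. At an unadjusted limma p under 0.05, 19 of the 60 were higher and 2 were lower, where 4.3% of all genes were higher and 10.4% lower. All 4 obese-father male arrays lay above all 4 lean-parent male arrays for 8 of the 60 genes and below them for 2, against 1.91% and 6.63% of all genes. Obese-father males had the highest of the 6 group means for 42 of the 60 genes, against 16.2% of all tested genes, and lean-parent males had the lowest for 23, against 12.7%.

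By complex, with no test between complexes, the median difference was 0.12 for complex II (5 of 8 genes above 0), 0.42 for complex III (9 of 11), 0.46 for complex IV (16 of 23) and 1.001 for complex V (17 of 17). Complexes II to IV hold assembly factors and complex V here holds none. Over subunits alone the medians were 0.22 for complex II (4 genes), 0.56 for complex III (9), 1.15 for complex IV (15) and 1.001 for complex V (17), so complex IV was then above complex V. Subunits of all complexes together with Cycs had a median of 0.90 (40 of 46 above 0) and assembly factors 0.13 (8 of 14). Brightness differed along with these medians. In lean-parent males complexes II to V had mean levels of 3.48, 4.62, 5.04 and 5.82, subunits 5.34 and assembly factors 3.79. The brighter 30 of the 60 genes had a median difference of 1.14 and the dimmer 30 one of 0.25. The part of brightness in the order of the complexes was not tested. Of the 19 genes that were higher at an unadjusted p under 0.05, 10 belonged to complex V, 5 to complex IV, 3 to complex III and 1 to complex II. Single arrays moved these numbers. Without lean-parent male array 4 the count of 19 became 7 (2 of 17 in complex V), without obese-father male array 12 it became 11 (4 in complex V), and without lean-parent male array 3 it became 26. The share of all genes that were higher moved with it, to 2%, 1.72% and 5.87%. The median over all 60 genes was 0.48 without array 12 and 0.84 without array 3. Without array 12 the medians were 0.073 for complex II, 0.16 for complex III, 0.23 for complex IV and 0.75 for complex V. Leaving out arrays 12 and 22 together, the 2 of widest spread, gave 17 genes (3.54% of all genes) and the same median of 0.48.

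**Figure D1:**
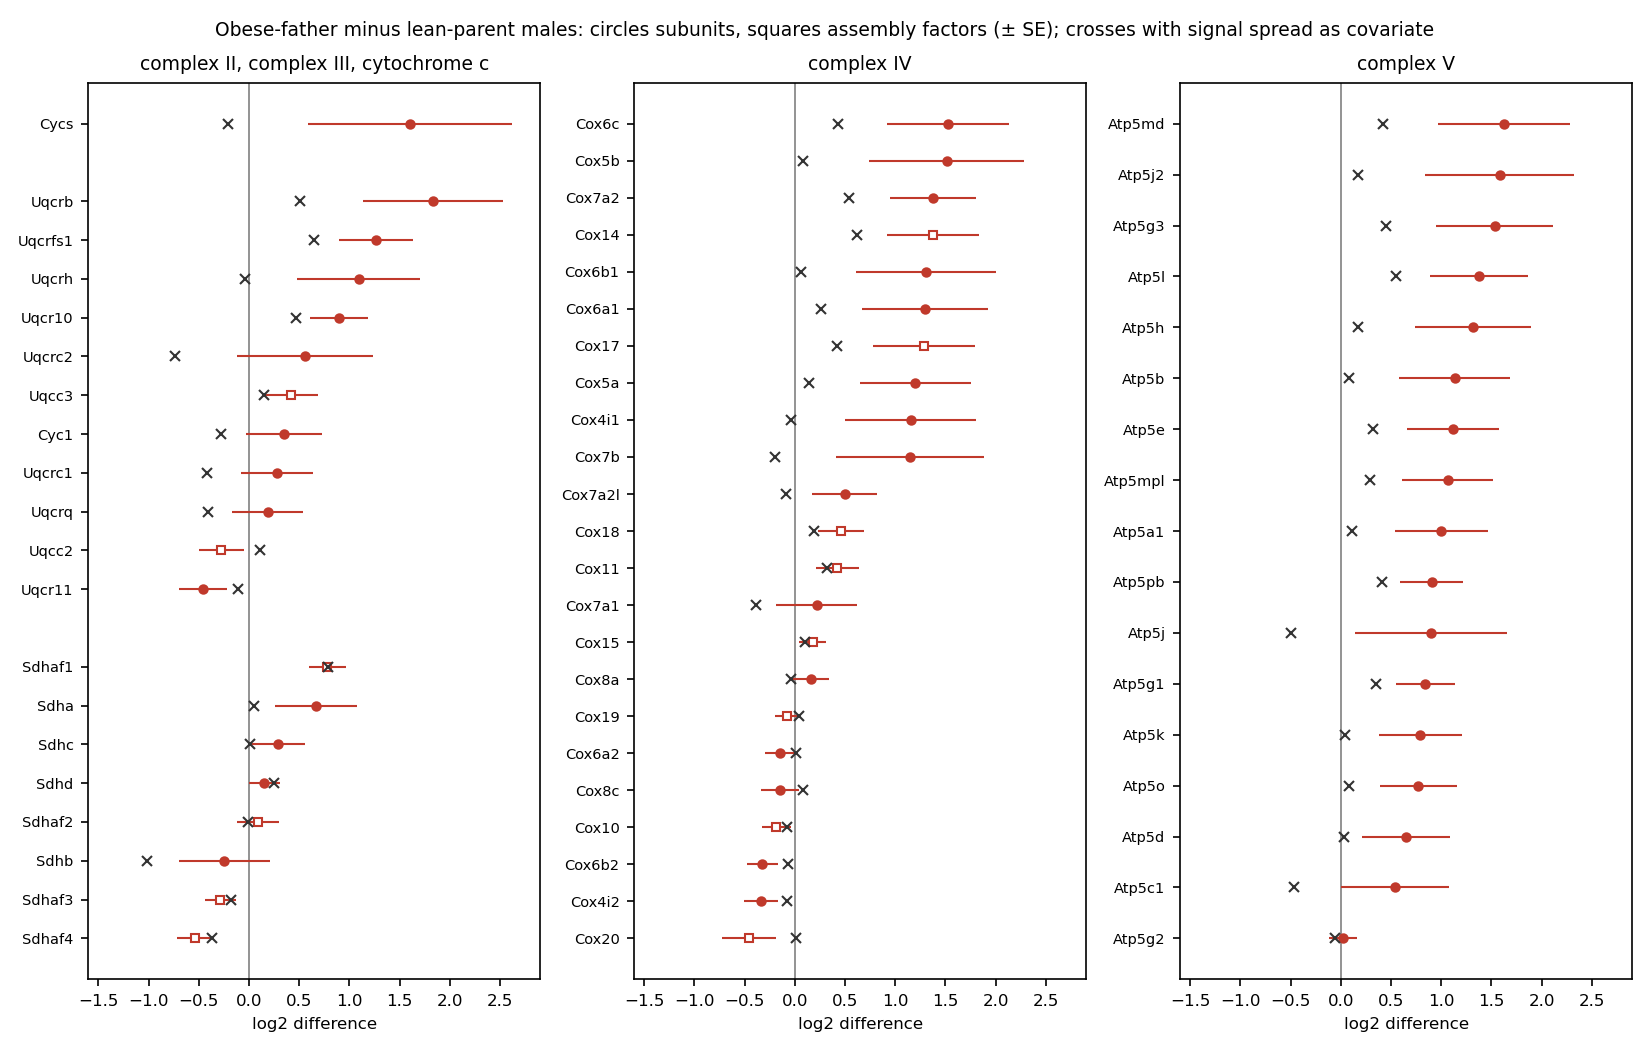
Log2 difference (x axis) of each tested gene (y axis) between obese-father and lean-parent males, 4 arrays each, by complex. Circles are subunits and open squares assembly factors, with bars of 1 standard error. Crosses are the differences with the signal spread of the array, over all probe sets, as a covariate. All 17 complex V genes lie above 0 without the covariate, Sdhaf1 keeps its place with it, and most others move towards 0.

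The difference went together with signal spread, which was 1.37 ± 0.12 (SD, n = 4) in lean-parent males and 1.55 ± 0.10 in obese-father males, 1.26 to 1.53 against 1.48 to 1.71 (exact permutation test, two-sided, p = 0.114, where 4 against 4 arrays cannot go below 0.0286). With the spread over all probe sets (the 63 genes included) as a covariate, the median difference of the 60 genes was 0.07 and 38 were above 0. The medians by complex became 0.0004 for complex II, -0.04 for complex III, 0.06 for complex IV and 0.17 for complex V (14 of 17 above 0), and 4 of the 60 genes were higher and 4 lower at an unadjusted p under 0.05, against 2.49% and 4.69% of all genes in that fit. After quantile normalization, which gives every array the same distribution, the median was 0.29 with 42 of 60 above 0, and by complex -0.05, 0.32, 0.22 and 0.54. Whether the spread itself belongs to the embryos or to the handling of the pools was not tested.

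**Figure D2:**
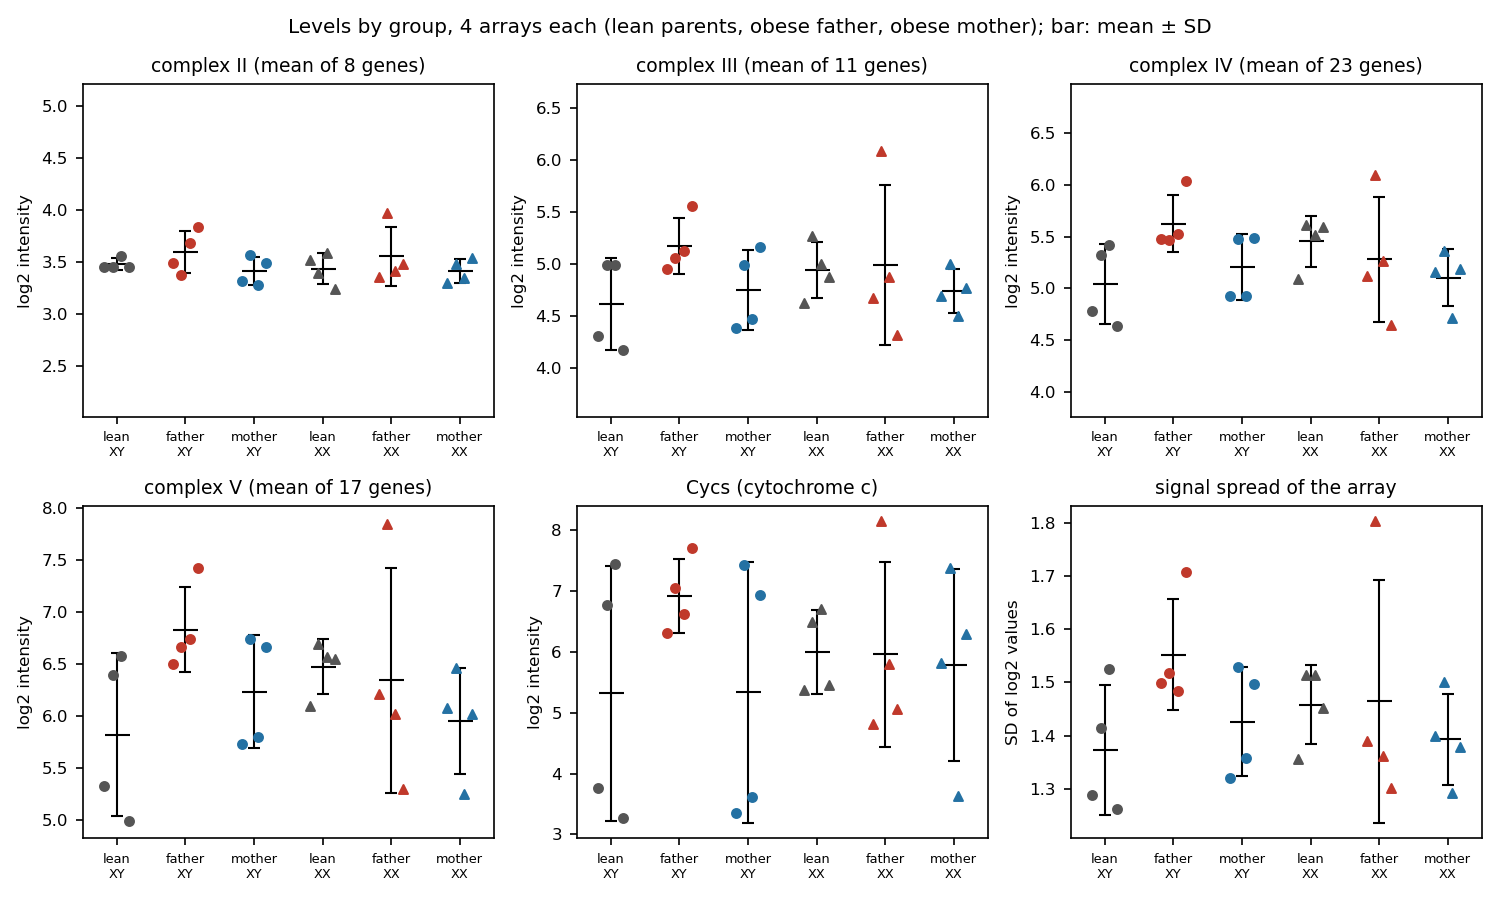
Mean log2 intensity (y axis) of the tested genes of each complex, of Cycs, and the signal spread of the array, for the 6 groups (x axis; lean parents, obese father, obese mother). Points are arrays (4 a group), bars show the mean and 1 SD, and the panels of the 4 complexes share 1 span of the axis. Complex V runs from 4.99 to 7.85, complex II only from 3.25 to 3.98, and the spread panel has the same shape as that of complex V.

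Promoter sequences of 6 genes are shown because these genes carry the contrasts described next: Sdhaf1 stands apart from the other genes, Uqcrfs1 and Cycs share a motif, and Atp5g1, Atp5g2 and Atp5g3 encode the same mature protein yet differ in their values. Each runs from 180 bases before to 25 bases after the start of the gene in RefSeq (GRCm38.p6, 5′ to 3′, all 6 on the minus strand), at chr7:30322351-30322555, chr13:30545292-30545496, chr6:50566545-50566749, chr11:96075607-96075811, chr15:102671023-102671227 and chr2:73911302-73911506 in this order. Capitals mark a match to the core bound by NRF1 (GCGCANGCG) or to the cyclic AMP response element (TGACGTCA).
Sdhaf1: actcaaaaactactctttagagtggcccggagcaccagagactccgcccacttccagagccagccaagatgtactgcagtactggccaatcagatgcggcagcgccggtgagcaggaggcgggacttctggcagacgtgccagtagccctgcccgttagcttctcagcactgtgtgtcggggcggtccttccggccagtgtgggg
Uqcrfs1: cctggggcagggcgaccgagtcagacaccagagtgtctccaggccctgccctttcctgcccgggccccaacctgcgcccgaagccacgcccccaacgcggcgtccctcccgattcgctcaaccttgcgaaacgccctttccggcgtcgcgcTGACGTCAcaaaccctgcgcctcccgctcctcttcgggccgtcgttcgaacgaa
Cycs: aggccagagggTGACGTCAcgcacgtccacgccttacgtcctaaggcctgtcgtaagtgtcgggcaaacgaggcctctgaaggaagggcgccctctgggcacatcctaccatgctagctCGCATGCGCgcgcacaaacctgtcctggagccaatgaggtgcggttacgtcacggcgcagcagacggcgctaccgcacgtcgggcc
Atp5g1: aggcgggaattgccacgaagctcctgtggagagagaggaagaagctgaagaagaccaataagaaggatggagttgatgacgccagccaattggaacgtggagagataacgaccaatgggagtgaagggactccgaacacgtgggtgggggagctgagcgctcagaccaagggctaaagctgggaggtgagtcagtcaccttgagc
Atp5g2: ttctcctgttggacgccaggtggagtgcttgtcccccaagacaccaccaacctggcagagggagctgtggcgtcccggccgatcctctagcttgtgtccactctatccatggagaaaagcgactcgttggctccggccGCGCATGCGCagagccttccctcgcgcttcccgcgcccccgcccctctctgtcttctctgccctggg
Atp5g3: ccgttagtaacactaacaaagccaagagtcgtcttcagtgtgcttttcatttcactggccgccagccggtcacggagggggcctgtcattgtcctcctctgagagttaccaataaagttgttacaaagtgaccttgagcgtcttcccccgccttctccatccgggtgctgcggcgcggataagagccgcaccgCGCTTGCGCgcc

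In these windows the cyclic AMP response element begins 29 bases before the start of Uqcrfs1 and 169 before that of Cycs. The NRF1 core begins 61 bases before the start of Cycs, 42 before that of Atp5g2, where it is a palindrome and matches on both strands, and 13 after that of Atp5g3. RefSeq promoters of 300 bases were matched for 49 of the 63 genes and searched on both strands. The NRF1 core was found in 16 of them (32.7%), against 7.03% of 27025 promoters. NRF1 is a transcription factor long known from cytochrome c and other respiratory genes. By complex, the core was present for 4 of 7 genes of complex II, 3 of 8 of complex III, Cycs, 1 of 18 of complex IV and 7 of 15 of complex V. CCGGAAGT, a site of ETS factors such as GABPA, was found in 7 (14.3%, against 4.31%), AAGATGGC, a site of YY1, in 6 (12.2%, against 3.19%), TGACGTCA in 2 (4.08%, against 2.03%), and TATAAA in 6 (12.2%, against 15.7%). In obese-father against lean-parent males the median difference was 0.60 over the 16 tested genes with the NRF1 core and 0.87 over the 30 without it. A match describes these letters and is no measured binding site.

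Complex II had the smallest median difference of the 4 complexes. Its 4 subunits are Sdha, the flavoprotein that oxidises succinate, Sdhb, which holds the iron-sulfur clusters, and the membrane anchors Sdhc and Sdhd. The log2 difference between obese-father and lean-parent males was 0.67 for Sdha (SE 0.41, limma adjusted p = 0.397) and -0.24 for Sdhb (SE 0.46, adjusted p = 0.784). Sdhb became 0.13 without lean-parent male array 3, and with the spread as a covariate Sdha was 0.05 and Sdhb -1.01. Among the assembly factors, Sdhaf1, which helps to place the iron-sulfur clusters in Sdhb, was 3.401, 3.05, 4.36 and 3.41 in obese-father male arrays 9 to 12, and 2.505, 2.97, 2.73 and 2.89 in lean-parent male arrays 1 to 4. The lowest obese-father male (3.05) lay above all 20 other arrays, whose highest value was 3.01 in an obese-father female. Over all tested genes, 0.015% separated obese-father males upwards from every other array in this way (2 genes, of which 1 is Sdhaf1).

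For Sdhaf1 the difference from lean-parent males was 0.78 (SE 0.18, limma adjusted p = 0.316), and over the alternatives its adjusted p ran from 0.124 to 0.727. It was 0.51 without obese-father male array 11, the highest, and 0.79 with the spread as a covariate. Sdhaf1 followed the spread weakly (Pearson r = 0.28 over 24 arrays). Against obese-mother males (2.498, 2.72, 2.78 and 2.58) the difference, obese mother minus obese father, was -0.91 (SE 0.18, limma adjusted p = 0.271), and this was the one call among the 63 genes at an adjusted p under 0.05 over the alternatives run: without obese-father male array 10 it was -1.08 with a limma adjusted p of 0.036. Its level is close to the table's median and it was above it on 22 arrays. Sdhaf4, which helps to join Sdha and Sdhb, was 2.94, 3.08, 3.201 and 2.77 in obese-father males and 3.35, 3.96, 3.43 and 3.41 in lean-parent males, below in all 4 (-0.54, SE 0.18, adjusted p = 0.316). This rests on 1 of its probe sets, since the other gave 0.57 and their mean 0.01. Sdhaf3, another factor for Sdhb, differed by -0.28 (SE 0.15, adjusted p = 0.358).

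In complex III the smallest p belonged to Uqcrfs1, the Rieske iron-sulfur protein that takes electrons from ubiquinol. It was 5.61, 5.55, 4.91 and 5.88 in obese-father males and 4.06, 4.86, 4.23 and 3.74 in lean-parent males. The groups did not overlap, and the difference was 1.27 (SE 0.37, limma adjusted p = 0.316), or 0.65 with the spread as a covariate. In females the obese-father arrays held both the highest value (6.24 on array 22) and values of 4.52 to 4.77. Uqcr10, a small subunit, differed by 0.90 (SE 0.29, adjusted p = 0.316) without overlap. Uqcrb, another small subunit, had the largest estimate of the 63 genes, 1.84, with an SE of 0.70 (adjusted p = 0.316) and overlapping arrays: lean-parent males were at 4.26, 6.94, 6.65 and 3.76, and obese-father males at 6.66 to 7.94. Arrays 1 and 4 set this difference, while arrays 2 and 3 were near the obese-father values. Cyc1, the heme protein that reduces cytochrome c, differed by 0.35 (SE 0.38, adjusted p = 0.621), and the core subunit Uqcrc1 by 0.28 (SE 0.36, adjusted p = 0.679). Both turned negative with the covariate (-0.28 and -0.41), and Uqcrc1 also without array 12 (-0.01).

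Cycs encodes cytochrome c, the electron carrier that also triggers the caspase cascade when released. It was 3.77, 6.78, 7.44 and 3.27 in lean-parent males and 3.35, 7.42, 3.61 and 6.94 in obese-mother males. In obese-father males it was 6.31, 7.04, 6.63 and 7.70. The first 2 groups each had a pair of low arrays and a pair of high ones, and obese-father males had none below 6.31. Their arrays 9 and 11 lay below the high arrays of the other male groups (6.78 to 7.44), array 10 among them and array 12 above. The difference from lean-parent males was 1.605 with an SE of 1.01 (limma adjusted p = 0.409), and it was -0.21 with the spread as a covariate. Female pools lay between 3.63 and 8.15.

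**Figure D3:**
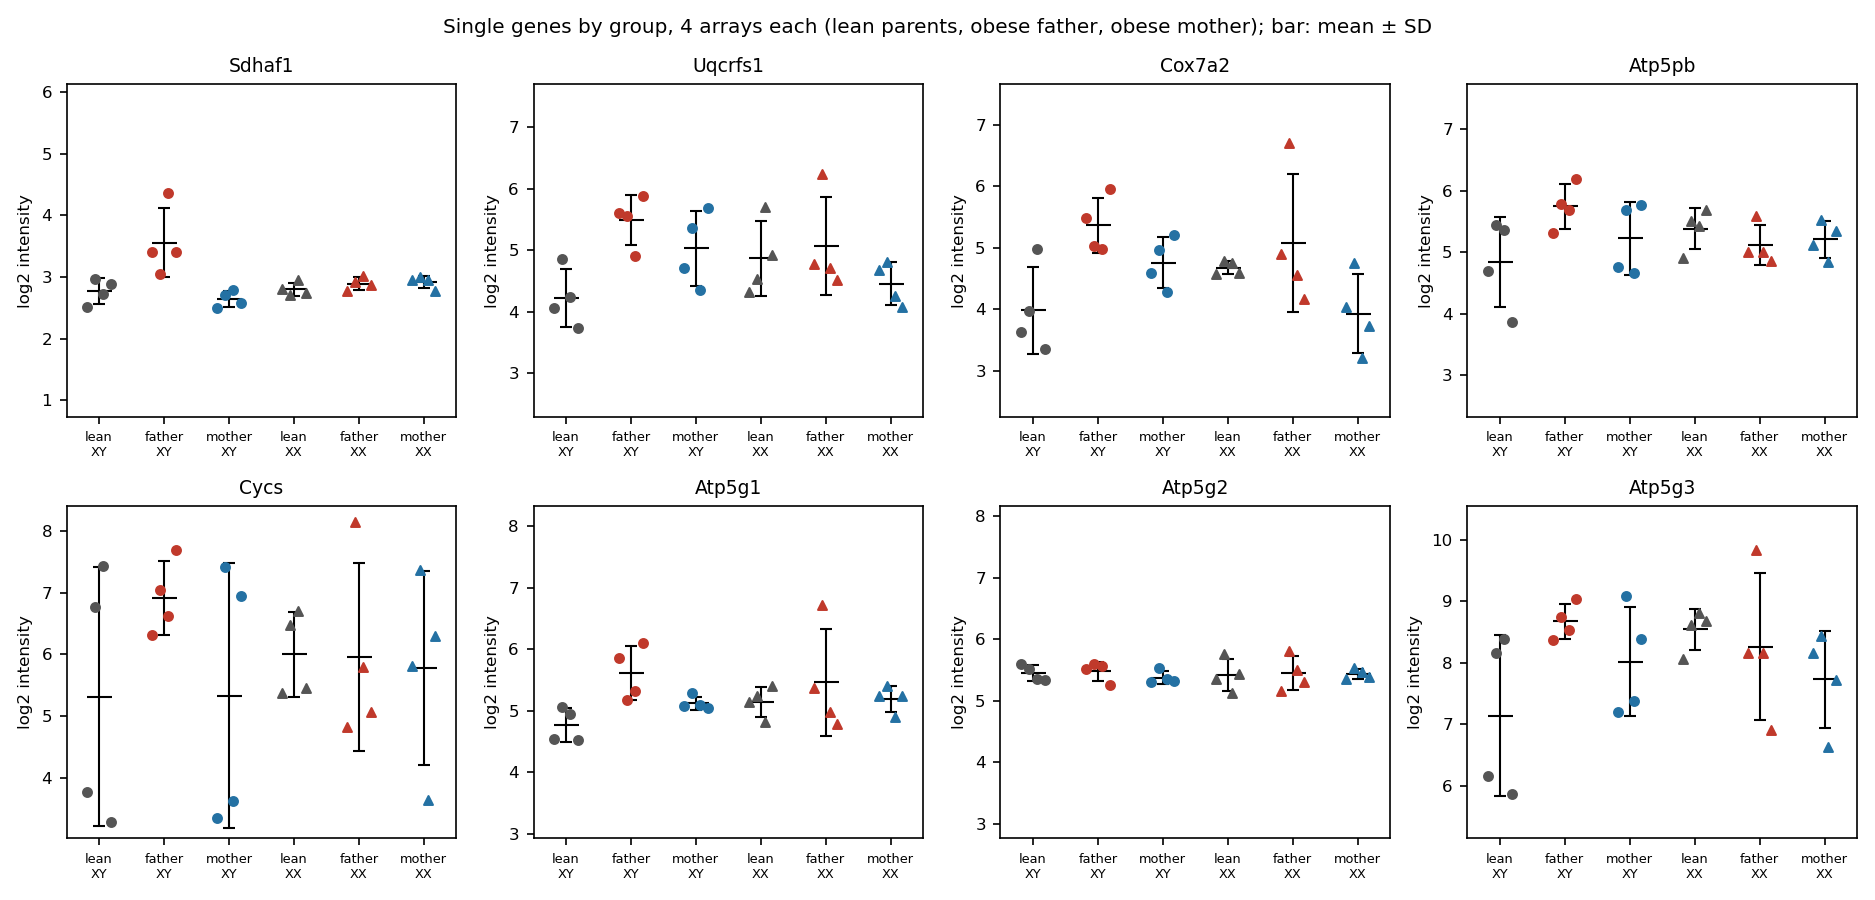
Log2 intensity (y axis, the same span in all panels) of 8 genes in the 6 groups (x axis), with 4 arrays a group as points, and the mean and 1 SD as bars. The obese-father males of Sdhaf1 (3.05 to 4.36) lie above every other array, Atp5g2 stays between 5.12 and 5.81, and Cycs spans 3.27 to 8.15.

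In complex IV, 16 of 23 estimates were above 0. Cox7a2, the general form of a small subunit, was 5.49, 5.04, 4.98 and 5.95 in obese-father males and 3.63, 3.97, 4.98 and 3.36 in lean-parent males. The groups touched without overlap at array 3, and the difference was 1.38 (SE 0.43, limma adjusted p = 0.316), or 0.54 with the covariate. Cox14, an assembly factor for the first subunit of the complex, differed by 1.38 (SE 0.46) without overlap, Cox17, the copper chaperone, by 1.29 (SE 0.51) and the subunit Cox6c by 1.52 (SE 0.61), with adjusted p = 0.316 for each. The subunits Cox5a (1.20, SE 0.55, adjusted p = 0.327) and Cox4i1 (1.15, SE 0.65, adjusted p = 0.374) had overlapping arrays, and Cox4i1 was -0.04 with the covariate. Cox20, which guards the newly made second subunit, was lower in all 4 obese-father males (7.91, 7.84, 7.82 and 6.83) than in lean-parent males (8.02 to 8.08), by -0.45 (SE 0.27, adjusted p = 0.389). Array 12 was the lowest, and with the covariate the difference was 0.01.

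The forms of complex IV subunits known from particular tissues were compared with their general partners, with no test of the difference between forms. Cox7b2 (testis) and Cox8b (heart and muscle) were not tested. Cox8c (testis) exceeded the table's median on 13 arrays and Cox7a1 (heart and muscle) on 12, whereas Cox4i2 (lung), Cox6a2 (heart and muscle) and Cox6b2 (testis) did so on 24. In obese-father against lean-parent males the differences were -0.34 for Cox4i2 (SE 0.17, limma adjusted p = 0.346), -0.15 for Cox6a2 (SE 0.15, adjusted p = 0.591), -0.33 for Cox6b2 (SE 0.16, adjusted p = 0.338), -0.15 for Cox8c (SE 0.19, adjusted p = 0.673) and 0.22 for Cox7a1 (SE 0.41, adjusted p = 0.784). Their partners Cox4i1, Cox6a1, Cox6b1 and Cox7a2 had estimates of 1.15 to 1.38, while Cox8a, the partner of Cox8c, had 0.16. With the covariate, Cox6a2 became 0.01, Cox8c 0.08 and Cox7a1 -0.39. Cox4i2 was higher in all 4 obese-mother males than in obese-father males (0.38, SE 0.17, adjusted p = 0.573).

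In complex V all 17 genes had a higher mean in obese-father males than in lean-parent males, from 0.02 to 1.63. The lowest p belonged to Atp5pb, subunit b of the stalk, at 5.32, 5.78, 5.68 and 6.19 against 4.69, 5.45, 5.36 and 3.86. The difference was 0.90 (SE 0.31, limma adjusted p = 0.316), and array 9 overlapped with lean-parent arrays 2 and 3. Atp5a1 and Atp5b, which form the catalytic head, differed by 1.001 (SE 0.46, adjusted p = 0.331) and 1.14 (SE 0.55, adjusted p = 0.342), and by 0.11 and 0.08 with the covariate. Atp5l, a membrane subunit at the contact between paired synthases, differed by 1.38 (SE 0.49, adjusted p = 0.316) without overlap. Atp5h, another stalk subunit, differed by 1.32 (SE 0.58, adjusted p = 0.322), and array 12 lay at 7.95 against 6.68 to 6.82 for the other obese-father males. The mean of the 17 genes was 6.50, 6.66, 6.75 and 7.42 in obese-father males and 5.33, 6.39, 6.58 and 4.99 in lean-parent males. Lean-parent arrays 2 and 3 thus stood close to the obese-father arrays and arrays 1 and 4 well below them.

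The 3 genes of subunit c, the rotor ring of the synthase, are known to differ in the peptide that guides the protein into the mitochondrion. They differed in their values as well, under the promoters printed above. Atp5g3 was 8.38, 8.75, 8.53 and 9.04 in obese-father males and 6.16, 8.15, 8.39 and 5.87 in lean-parent males (1.53, SE 0.58, limma adjusted p = 0.316). Atp5g1 was 5.86, 5.17, 5.32 and 6.09 against 4.53, 5.06, 4.95 and 4.53, without overlap (0.84, SE 0.29, adjusted p = 0.316). Atp5g2 was 5.51, 5.60, 5.56 and 5.25 against 5.61, 5.53, 5.36 and 5.34 (0.02, SE 0.14, adjusted p = 0.935). Over all 24 arrays Atp5g2 stayed within 5.12 to 5.81, and Atp5g3 ran from 5.87 to 9.83. The estimate of Atp5g2 was -0.06 with the covariate, -0.55 after quantile normalization and between -0.02 and 0.10 when single arrays were left out. Its other probe sets gave 0.44 and 0.10.

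Across all 24 arrays the complexes followed the signal spread to different extents. Pearson's r between the mean of a complex and the spread was 0.73 for complex II, 0.96 for complex III, 0.94 for complex IV and 0.96 for complex V, with Spearman's rho of 0.54, 0.89, 0.88 and 0.93. Leaving out the 2 arrays whose spread was farthest from its median gave r of 0.36, 0.92, 0.93 and 0.95, so the relation of complex II rested largely on them. For Cycs r was 0.85 and rho 0.92. These values are descriptions over arrays that share their spread with the whole table. Per gene, r with the spread was above 0.8 for 30 of the 60 genes and below 0 for 12. Across the 60 genes, the slope on the spread was related to the mean level (r = 0.56, rho = 0.58), and the difference between obese-father and lean-parent males to that slope (r = 0.90, rho = 0.90), where genes are not independent replicates and the same arrays enter both. Of the 12 genes with r below 0, 10 were among the dimmer 30 genes. Cox20, with a mean of 7.77, and Uqcr11, with 6.74, were the 2 bright ones. For Uqcr11 this rests on the probe set used, since its other set had a mean of 4.38 and did not follow it closely (r = 0.17).

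**Figure D4:**
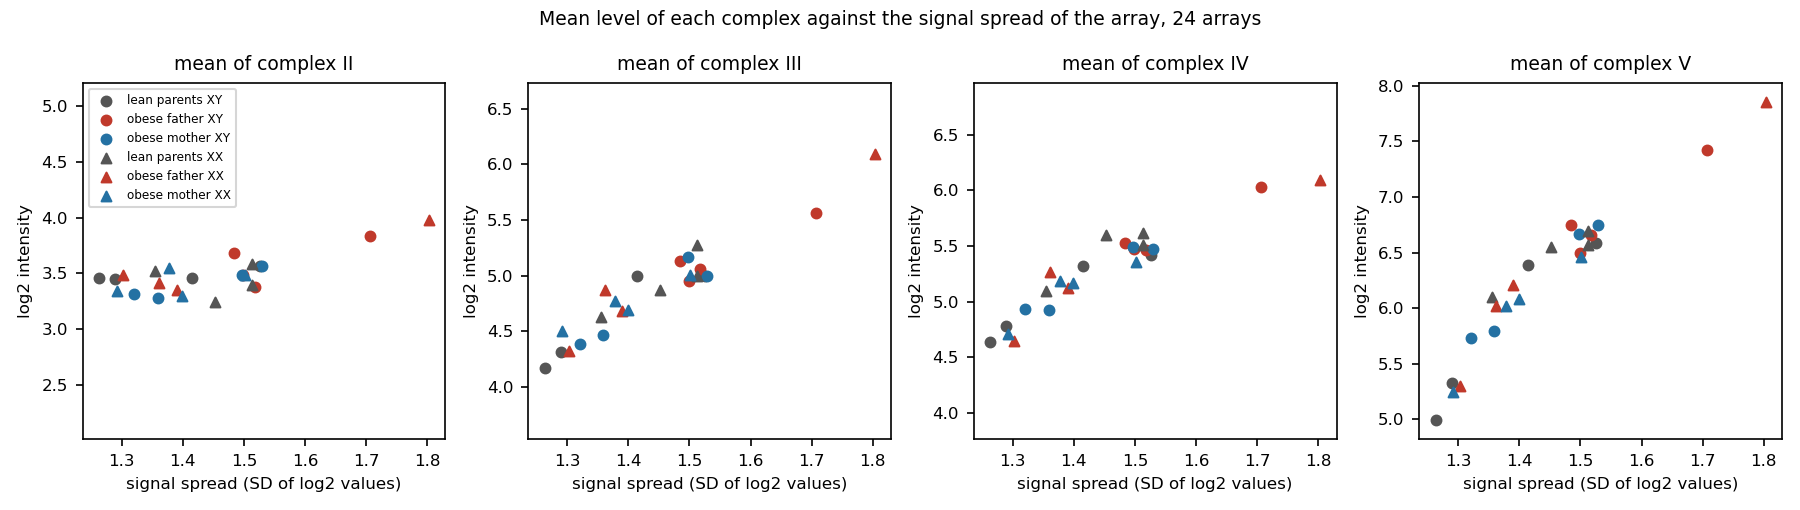
Mean log2 intensity of each complex (y axis, the same span in all panels) against the signal spread of the array (x axis, SD of its log2 values), for 24 arrays coloured by parents, with circles for male and triangles for female pools. Complexes III, IV and V lie along a line (r of 0.94 to 0.96), and complex II rises less steeply (0.95 log2 per unit of spread, against 2.82 to 4.99). All obese-father males lie at a spread of 1.48 or wider, where arrays of other groups lie too.

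The genes also varied together within groups. Each gene's deviations from its group means were correlated with the mean deviation of the other 59 tested genes. The median r was 0.79, and it was above 0.8 for 30 of 60 genes, among them 14 of 17 in complex V, 10 of 23 in complex IV, 5 of 11 in complex III and 0 of 8 in complex II. Subunits had a median of 0.85 and assembly factors 0.11. The closest followers were Atp5h (0.96), Uqcrb (0.95) and Cox5a (0.95). The 3 lowest were Cox6b2 (-0.86), Uqcc2 (-0.78) and Cox20 (-0.74). The value of Uqcc2 rests on 1 of its probe sets, which its other set did not follow (r = -0.07). In complex II, Sdhaf4 (-0.42), Sdhaf3 (-0.39), Sdhd (-0.30), Sdhaf1 (0.06) and Sdhaf2 (0.17) had low values, and Sdhc (0.51), Sdha (0.64) and Sdhb (0.73) higher ones. Atp5g2 (0.34) was the lowest in complex V. The assembly factor Cox17 (0.86) varied with the subunits. These are descriptions over 24 arrays of 6 groups, which share the spread as well.

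**Figure D5:**
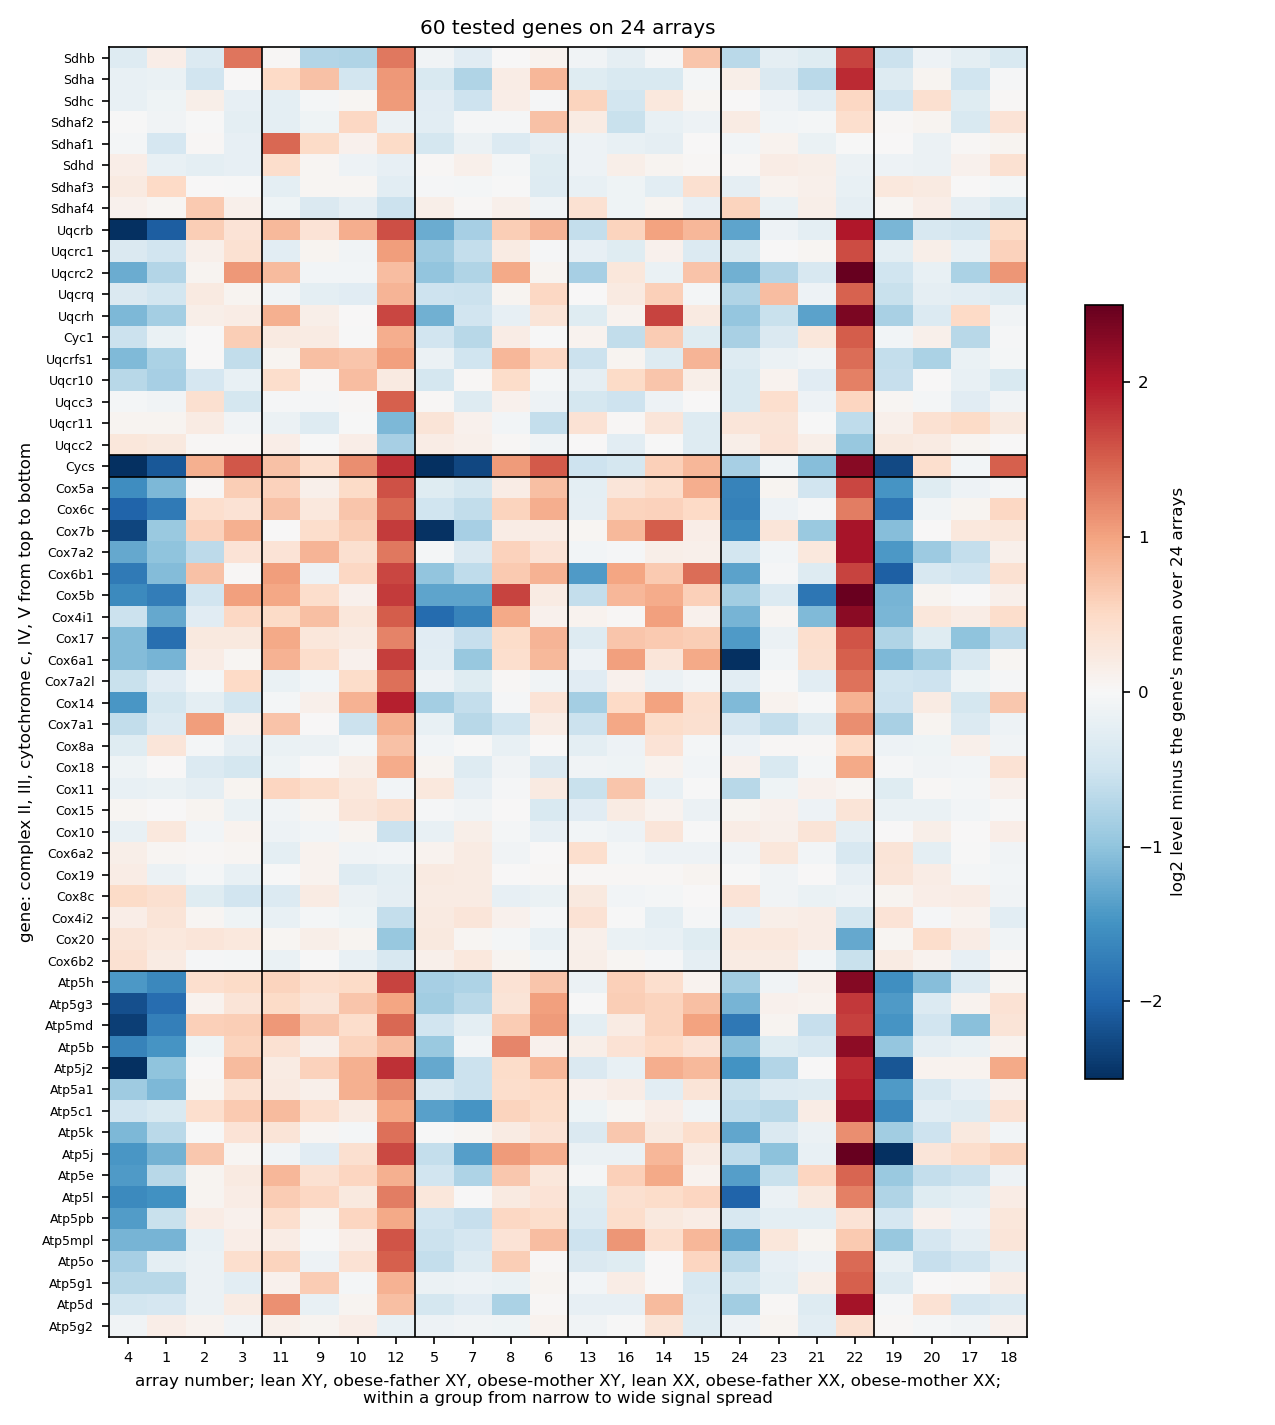
Log2 level minus the gene's mean (colour, blue below and red above) for the 60 tested genes (rows, by complex and within it by how closely they vary with the others) on 24 arrays (columns, by group and within it from narrow to wide signal spread). Lean-parent male arrays 4 and 1 are low and arrays 12 and 22 high through complexes III to V, while Cox20, Cox6b2 and Uqcc2 run the other way.

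Females with an obese father were compared with females of lean parents, and no gene passed there (0% of all genes). At an unadjusted limma p under 0.05, 0 of the 60 were higher and 0 lower, against 1.95% and 0.886% of all genes. The medians were 0.04, 0.13, -0.11 and -0.22 for complexes II, III, IV and V. They leaned on array 22: without it complex III was -0.23 and complex V -0.78, and without array 24 complex V was 0.17. On array 22 the mean of complex V was 7.85, against 6.21, 6.02 and 5.30 on the other obese-father female arrays. The 3 smallest p belonged to Uqcrc1 (0.51, SE 0.36), the assembly factors Sdhaf2 (0.30, SE 0.21) and Uqcc3 (0.39, SE 0.27), with limma adjusted p = 0.9997 for each.

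For an obese mother, 0% of all genes passed in either sex. In males 1 of the 60 genes was higher and 0 were lower at an unadjusted p under 0.05, against 0.601% and 1.1% of all genes, and in females 0 were higher and 1 lower, against 1.65% and 0.541%. The medians for complexes II to V were -0.11, 0.01, 0.04 and 0.40 in males and 0.05, -0.12, -0.19 and -0.55 in females. In complex V 14 of 17 genes were above 0 in males and 2 of 17 in females. In males its median was 0.15 without lean-parent array 4 and 0.65 without lean-parent array 3, and in females it was -0.36 without obese-mother array 19. In males the gene was Uqcrfs1, at 4.71, 5.36, 4.36 and 5.69 (0.81, SE 0.37, limma adjusted p = 0.9998), and Atp5l differed by 0.93 (SE 0.49) and Sdhaf3 by -0.28 (SE 0.15) with adjusted p = 0.9998. In females it was Cox17, at 6.60, 6.95, 6.86 and 7.31 against 7.28, 8.25, 8.23 and 8.31 in lean-parent females (-1.09, SE 0.51, adjusted p = 0.999). Atp5e, a small subunit of the central stalk, differed by -0.95 without overlap (SE 0.46, adjusted p = 0.999), and Uqcr10 by -0.55 (SE 0.29, adjusted p = 0.999). Both obese-parent comparisons of a sex share the lean-parent arrays of that sex. With the covariate the medians of complex V were 0.15 in males and -0.24 in females.

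Obese-mother and obese-father embryos were compared directly. In males 0.00751% of all genes passed (1 gene), none of the 63. At an unadjusted limma p under 0.05, 1 of the 60 was higher with an obese mother (Cox4i2) and 4 were lower (Sdhaf1, Cox14, Cox15 and Cox4i1), against 6.27% and 2.08% of all genes. Cox14 differed by -1.01 (SE 0.46, limma adjusted p = 0.573). The medians for complexes II to V were -0.06, -0.46, -0.52 and -0.61, with 0 of 17 complex V genes above 0 (median -0.37 without obese-father array 12). With the covariate they were between -0.07 and -0.02. In females 0% of all genes passed, and 0 of the 60 were higher and 1 lower (Cox7a2, -1.15, SE 0.43, adjusted p = 0.975), against 1.97% and 1.28%. The female medians were -0.12, -0.25, -0.11 and -0.44. All 4 turned positive without obese-father female array 22 (0.04, 0.09, 0.05 and 0.11).

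Male and female embryos were compared within each kind of parents. With lean parents 0% of all genes passed, and 0 of the 60 were higher in males and 3 lower (Uqcr10, Atp5g3 and Atp5mpl) at an unadjusted limma p under 0.05, against 2.52% and 0.849%. Uqcr10 differed by -0.80 (SE 0.29, adjusted p = 0.992), and complex V had a median of -0.66. With an obese father 0.00751% passed, 2 of the 60 were higher in males (Sdhaf1 and Cox11) and 1 lower (Sdhaf4), against 1.47% and 3.94%, and complex V had a median of 0.43 with 17 of 17 above 0. There Sdhaf1 differed by 0.66 (SE 0.18, adjusted p = 0.760). With an obese mother 0% passed, and 0 of the 60 were higher and 0 lower, against 0.706% in each direction, with a complex V median of 0.30. Single arrays moved the complex V medians, to -1.03 without male array 2 and -0.36 without male array 4 with lean parents, to 1.02 without female array 22 and 0.15 without female array 24 with an obese father, and to 0.064 without male array 8 and 0.53 without female array 18 with an obese mother. The one X-linked gene of the 63 is Cox7b.

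Whether the effect of an obese parent differed between the sexes was tested as a difference of differences, the effect in males minus that in females. A value above 0 need not mean a stronger effect in males. For an obese father 0% of all genes passed. At an unadjusted limma p under 0.05, 15 of the 60 differences were above 0 and 1 below. Of all genes, 1.86% were above and 5.68% below. The medians were -0.04, 0.15, 0.57 and 1.19 for complexes II to V, and 0.33 for complex V with the covariate. Atp5pb had the smallest p of the 60 (1.17, SE 0.44, adjusted p = 0.654). The count of 15 became 4 without obese-father female array 24 and 29 without array 22. For an obese mother 0% passed, and 7 of the 60 were above 0 and 0 below at that p, against 0.819% and 1.77%. The count of 7 became 3 without lean-parent male array 1 and 13 without array 3. The medians were 0.02, 0.11, 0.16 and 1.07, and for complex V 0.37 with the covariate and 0.65 without obese-mother female array 19. Uqcr10 had the smallest p there (1.09, SE 0.41, adjusted p = 0.9999), with effects of 0.53 in males and -0.55 in females. The lean-parent arrays enter both tests.

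Other genes of oxidative phosphorylation were set beside the 63, from lists chosen with earlier results of these data known. In obese-father against lean-parent males, 0 of these genes passed in limma. Complex I was taken by symbol, as 35 genes with Nduf, then a, b, c, s or v and a digit. Ndufa4 and Ndufa4l2 are among them, so not all need be subunits of that complex. Of the 35, 30 were above 0, with a median of 0.76. At an unadjusted p under 0.05, 13 were higher and 1 lower, against 4.3% and 10.4% of all genes. Of 5 tested genes that move or spare ATP (carriers of phosphate and of ATP and ADP, mitochondrial creatine kinase, and the synthase inhibitor Atpif1) 5 were above 0, with a median of 1.13, and 1 was higher. Of 15 assembly factors whose symbols fall outside the rule, 7 were above 0, with a median of -0.03, and 0 were higher or lower. Of 9 tested regulators of respiratory genes, such as Nrf1, Gabpa, Yy1 and Tfam, 3 were above 0 (median -0.09), and of 7 genes of ubiquinone synthesis 4 (median 0.01, 1 higher). The 35 Nduf genes had a median of -0.09 in females with an obese father, 0.15 in males and -0.32 in females with an obese mother. With the covariate, in obese-father males, the Nduf genes had a median of 0.06. The genes that move or spare ATP turned to -0.14, with 1 of 5 above 0.

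Markers of embryonic lineages and of carried-over cells are given beside these values. In obese-father males the summed log2 level of 6 markers of the inner cell mass and epiblast was 26.2 to 30.7, against 21.2 to 27.0 in lean-parent males, and that of 8 trophectoderm markers 37.0 to 42.0 against 35.4 to 39.0. The sum of 7 cumulus and granulosa markers was 17.3 to 20.1 against 19.6 to 22.4. Of its 5 tested genes, 5 had a lower mean (3 at an unadjusted limma p under 0.05, against 10.4% of all genes). Of all 13311 tested genes, 4429 had a higher mean in obese-father males. With the spread as a covariate the median of the 5 cumulus and granulosa genes went from -0.36 to -0.12, with 2 above 0. The medians went from 0.30 to -0.13 for the inner cell mass and epiblast and from 0.17 to 0.07 for trophectoderm. For 5 primitive endoderm markers the sums were 16.3 to 17.2 against 15.5 to 17.5, for 2 blood markers 4.11 to 4.65 against 4.37 to 5.29, for 3 of the oviduct and uterus 6.48 to 7.11 against 6.50 to 7.95, and for 4 of sperm 12.6 to 14.1 against 12.98 to 14.5. The part of cell makeup in the respiratory values was not tested.

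Some values depend on which probe set stands for a gene. Of the 63 genes, 15 had more than 1 probe set, up to 6 for Atp5l, and the brightest was used. For Atp5l the 6 sets gave 1.18 to 1.38 in obese-father against lean-parent males, for Uqcrb the 3 sets gave 1.63 to 1.84, and for Atp5md 1.38 to 1.63. Respiratory genes are known to have processed copies elsewhere in the genome, and probe sets may read near-identical copies, which was not tested. Sets disagreed for Sdhaf4 (r = -0.47 between its 2 sets over 24 arrays), Uqcc2 (-0.07), Uqcr11 (0.17) and the third set of Cycs (-0.28, with a mean of 1.97, below the table's median). The values of Sdhaf4, Uqcc2 and Uqcr11 are therefore uncertain, and so are those of Cycs, although its 2 brighter sets varied together (r = 0.98). Cox16 and Cox7c were represented only by probe sets with several symbols and were not analysed here.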

How the data were processed

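Lysates of 3 sex-matched blastocysts were pooled, amplified (Ovation One-Direct) and hybridised to Affymetrix arrays, per the labels' protocols. The deposited log2 values were made by the authors with RMA (affy), per the submitters' processing notes, with versions and build not given in the sources used here. Of 35556 probe sets, 21789 had 1 symbol in the platform annotation, 1621 several and 12146 none. The highest-mean set stood for each gene. Genes above the table's median (2.56) on at least 4 of 24 arrays were tested. limma 3.58.1 (R 4.3.3; lmFit, eBayes) was fitted with 6 group means, 11 contrasts and Benjamini-Hochberg adjustment over 13311 genes, and was tested on simulated data. Genes named in the text were, by rule, those of smallest p or most negative difference per complex and contrast, catalytic subunits, tissue isoforms and those of extreme co-variation. A few others with groups that do not overlap, or with several probe sets, were named after their values were seen. The 63 genes and all lists were chosen with earlier results of these data known. Alternatives covered the filter, probe set choice, normalization, prior, weights, signal spread and each array left out.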

Additional observations from a re-analysis of the deposited data

Results flagged for a closer look

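Of 246 groups of 4 arrays looked at (41 items), 19 held 1 array farther from the rest than Dixon's 95% limit for 4 values, where chance gives about 1 in 20. Obese-father female array 22 was the highest for Uqcrfs1 (6.24), Atp5a1 (8.46) and Cox7a1 (3.88) and the lowest for Cox20 (6.48) and Uqcc2 (3.87). Obese-father male array 12 was the highest for Uqcc3 (4.17), Atp5h (7.95) and the mean of complex IV (6.03) and the lowest for Cox20 (6.83). Lean-parent female array 13 was the lowest for Cox17 (7.28), Cox6c (8.67) and Atp5l (6.40) and the highest for Cox6a2 (4.10). Cox4i1 was highest in lean-parent female array 14 (7.07) and lowest in obese-mother female array 19 (4.90). Sdhaf4 was highest in lean-parent male array 2 (3.96), Sdhaf3 lowest in obese-mother male array 6 (2.12), Cox8c highest in obese-father female array 24 (2.98), and the mean of complex II highest in lean-parent male array 3 (3.56).

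For 9 of the 60 tested genes, every obese-mother male array lay on one side of the lean-parent mean of its sex and every obese-mother female array on the other. The male effect minus the female effect was 1.22 for Uqcrfs1 (0.81 and -0.41), 1.09 for Uqcr10 (0.53 and -0.55), 1.81 for Cox17 (0.73 and -1.09), -0.54 for Cox20 (-0.27 and 0.27), 1.49 for Atp5l (0.93 and -0.55), 1.68 for Atp5g3 (0.87 and -0.81), 1.41 for Cox5a (0.56 and -0.85), 1.999 for Atp5md (0.95 and -1.05) and 1.41 for Atp5mpl (0.62 and -0.78). None of these passed the limma test of the interaction, where the smallest adjusted p of the 60 genes was 0.9999. These genes were picked by this pattern, so it is a description. Its share over all tested genes was not computed, so 9 of 60 cannot be called frequent or rare. Signal spread also moved in opposite directions. It was 1.43 in obese-mother against 1.37 in lean-parent males, and 1.39 against 1.46 in females. Over 24 arrays r with the spread was -0.85 for Cox20 and from 0.76 (Uqcr10) to 0.91 (Cox5a) for the others. The part of the spread in this pattern was not tested.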

How the results depend on the processing

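The 30 medians, 11 counts of called genes and 53 differences of named genes were recomputed. Without obese-father male array 10 the count called between obese-mother and obese-father males was 1 (0 to 1 over arrays left out; Sdhaf1, -1.08). In obese-father against lean-parent males, quantile normalization gave medians of 0.29 (all) and -0.052 (complex II), and the spread covariate 0.069 (all), -0.040 (III), 0.062 (IV) and 0.17 (V). In obese-mother against obese-father males, quantile normalization gave -0.089 (all), 0.0022 (IV) and -0.082 (V), and the covariate -0.039 (all), -0.062 (III), -0.019 (IV) and -0.023 (V). In obese-mother females complex III ran from -0.48 (without array 18) to 0.057 (without array 17) when single arrays were left out.

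Signs turned in obese-father against lean-parent males for Sdhaf4 (0.015 with probe sets averaged, 0.57 with its other set), Atp5g2 (-0.55 after quantile normalization) and, with the covariate, Cox20 (0.013), Atp5g2 (-0.059), Cycs (-0.21), Cyc1 (-0.28), Uqcrc1 (-0.41), Cox4i1 (-0.040), Cox6a2 (0.015), Cox7a1 (-0.39), Cox8c (0.076) and Uqcc2 (0.11). Leaving out 1 array turned Atp5g2 (-0.016 to 0.10), Sdhb (-0.69 to 0.13), Uqcrc1 (-0.0072 to 0.44, and -0.0072 without both arrays of widest spread), Cox7a1 (-0.0044 to 0.54) and Cox8c (-0.32 to 0.00039). The causes were not tested. Leaving out both widest arrays and using other probe sets were chosen after seeing the data. No paired analysis was possible because the labels do not name the parents of each pool. Array numbers run in unbroken blocks of 4 by group, and what order they follow is not given. Values near the table's median carry little signal over background.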
